A study of Mus musculus with 20 samples.

Results

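The 10 genes described here are *Trp53*, which encodes the transcription factor p53, its inhibitor *Mdm2*, the p53 targets *Cdkn1a*, *Ccng1*, *Bax* and *Gdf15*, the cyclin-dependent kinase (CDK) inhibitors *Cdkn2a*, *Cdkn1b* and *Cdkn2c*, and *Lmnb1*, which encodes lamin B1. They were chosen by name as markers of cellular senescence and of p53 activity, and each matched 1 of the 55487 Ensembl mouse genes in the deposited count table. All 10 passed the filter on low counts that left 12799 genes for testing.

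RNA-seq was performed on BV-2 cells, murine microglia immortalised with a retrovirus carrying the v-raf and v-myc oncogenes. The 20 cultures formed 4 groups of 5: young (control) BV-2 microglia at low passage, untreated; aged BV-2 microglia, obtained by long-term cultivation, untreated; and young and aged BV-2 microglia exposed to lipopolysaccharide (LPS), a bacterial Toll-like receptor ligand, at 100 ng/ml for 6 hours. Each of 5 batches held 1 culture of every group. How many separate long-term cultivations gave the aged cells is not given in the sources used here, so the p-values measure the spread between these cultures. The design asks whether aged cells differ from young ones in these genes at rest, how the genes respond to LPS, and whether that response differs with age.

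Library totals ranged from 11371508 to 16829292 counts. Levels are given in CPM, counts brought to a common library size, after TMM scaling, which corrects for differences in RNA composition between libraries. All 12 microglia and macrophage markers examined were above 3 counts in every untreated library and 10 of the 12 in every LPS-treated library, while the summed level of 6 neuronal markers reached at most 0.414 CPM, that of 5 astrocyte markers at most 1.55 CPM and that of 5 oligodendrocyte markers at most 1.78 CPM. The 12 microglia and macrophage markers summed to 2375.4 to 4338.3 CPM. *P2ry12* and *Cx3cr1*, 2 of these 12, averaged at most 1.175 and 1.0473 CPM in any group, no higher than the largest oligodendrocyte sum. Of the 5 oligodendrocyte markers, 2 were above 3 counts in every young untreated library. The 4 endothelial markers summed to 66.2 to 112 CPM, but only 1 of the 4, *Kdr*, was above 3 counts in every library of a group. Differences are log2 fold changes with their standard error (SE) from edgeR's quasi-likelihood test over all 20 libraries. A gene with a Benjamini-Hochberg adjusted p below 0.05 is called a differentially expressed gene (DEG).

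Senescent cells stop dividing and hold that arrest through CDK inhibitors. p53, which DNA damage and other stresses stabilise, induces *Cdkn1a*, the gene for p21, while the *Cdkn2a* locus gives p16Ink4a, an inhibitor of CDK4 and CDK6, and p19Arf, which protects p53 from Mdm2. Mdm2 is itself a p53 target and marks p53 for degradation, which makes a feedback loop, and loss of lamin B1 from the nuclear envelope is widely used as a sign of senescence. In macrophages and microglia, several of these genes also respond to inflammatory stimuli, *Cdkn1a* and *Gdf15* among them.

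In the genome (GRCm38), *Cdkn1a* lies on the plus strand of chromosome 17 at 29090976 to 29100727, *Trp53* on the plus strand of chromosome 11 at 69580359 to 69591873, and *Ccng1* on the minus strand of the same chromosome at 40748552 to 40755311. *Mdm2* lies on the minus strand of chromosome 10 at 117688875 to 117710758 and *Bax* on the minus strand of chromosome 7 at 45461697 to 45466898. *Cdkn2a*, at 89274471 to 89294653, and *Cdkn2c*, at 109660876 to 109667189, share the minus strand of chromosome 4. *Cdkn1b* lies on the plus strand of chromosome 6 at 134920401 to 134925513 and *Gdf15* on the minus strand of chromosome 8 at 70629393 to 70632456. All 10 are protein-coding. Counts per gene sum all transcripts, so the p16Ink4a and p19Arf messages of *Cdkn2a* cannot be told apart. *Bax* shares 192 exon bases, 12.2% of its exon length, with *Gm45808* on the same strand, which had 363 to 726 counts where *Bax* had 1675 to 2780.

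The sequence around the transcription start is shown for the 5 of these genes in which it held at least 1 match to the consensus half-site of p53, since p53 and its targets are what these genes have in common. Each window runs from 250 bases before to 10 bases after a RefSeq start (GRCm38.p6) and is written 5′ to 3′ on the strand of the gene. Capitals mark p53 half-sites and, in *Trp53* alone, also a consensus NF-kappaB motif, sought on both strands like the half-site. Both motifs were chosen after the data had been seen. Positions count back from the start, with -1 the base just before it. The windows are chr17:29090729-29090988 (plus strand) for *Cdkn1a*, chr10:117710749-117711008 (minus) for *Mdm2*, chr11:40755277-40755536 (minus) for *Ccng1*, chr7:45466889-45467148 (minus) for *Bax* and chr11:69580109-69580368 (plus) for *Trp53*.
Cdkn1a: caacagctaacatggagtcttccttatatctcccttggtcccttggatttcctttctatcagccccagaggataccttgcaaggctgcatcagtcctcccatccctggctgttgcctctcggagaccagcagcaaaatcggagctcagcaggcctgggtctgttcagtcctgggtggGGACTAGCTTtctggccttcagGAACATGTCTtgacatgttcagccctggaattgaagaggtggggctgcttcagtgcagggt
Mdm2: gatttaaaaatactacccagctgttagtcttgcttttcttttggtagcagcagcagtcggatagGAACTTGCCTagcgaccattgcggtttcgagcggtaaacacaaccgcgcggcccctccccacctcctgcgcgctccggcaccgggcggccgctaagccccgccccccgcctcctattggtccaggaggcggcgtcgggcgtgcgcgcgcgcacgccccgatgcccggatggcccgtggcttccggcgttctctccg
Ccng1: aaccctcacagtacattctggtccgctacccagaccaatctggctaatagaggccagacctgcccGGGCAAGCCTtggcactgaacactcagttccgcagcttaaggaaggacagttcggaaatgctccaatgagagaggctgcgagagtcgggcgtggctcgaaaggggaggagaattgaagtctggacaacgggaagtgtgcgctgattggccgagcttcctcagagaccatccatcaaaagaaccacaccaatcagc
Bax: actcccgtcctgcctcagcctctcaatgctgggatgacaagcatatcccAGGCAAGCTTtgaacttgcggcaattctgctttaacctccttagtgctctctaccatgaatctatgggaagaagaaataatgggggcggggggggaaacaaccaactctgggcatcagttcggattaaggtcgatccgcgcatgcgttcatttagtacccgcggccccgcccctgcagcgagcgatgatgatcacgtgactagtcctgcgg
Trp53: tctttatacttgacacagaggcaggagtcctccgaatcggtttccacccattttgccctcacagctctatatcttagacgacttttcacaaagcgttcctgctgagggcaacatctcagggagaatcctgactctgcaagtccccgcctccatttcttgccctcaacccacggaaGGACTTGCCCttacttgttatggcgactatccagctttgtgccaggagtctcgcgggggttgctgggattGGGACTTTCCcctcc

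*Cdkn1a* held a pair of half-sites, GGACTAGCTT at -73 and GAACATGTCT at -51. The other windows held 1 half-site each, GAACTTGCCT at -186 in *Mdm2*, GGGCAAGCCT at -185 in *Ccng1*, AGGCAAGCTT at -201 in *Bax* and GGACTTGCCC at -75 in *Trp53*, which also had GGGACTTTCC at -5. Half-sites occurred in 7.35% and the NF-kappaB motif in 0.368% of all 32851 windows of this length in the table. Of the 13 windows of 9 genes, 5 held a half-site, and none was found in those of *Cdkn2a*, *Cdkn1b*, *Cdkn2c* and *Gdf15* or in a further *Cdkn1a* window, chr17:29093519-29093778, at a start downstream of the one shown. A match is a run of letters and not a measured binding site.

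Levels were compared between genes per kilobase of exon (RPKM). In young untreated cells *Bax* was highest at 86.9 ± 4.85 RPKM (SD, n = 5), followed by *Lmnb1* at 66.0 ± 6.27 and *Trp53* at 63.6 ± 4.25 RPKM, whose ranges overlapped, and by *Cdkn2a* at 39.7 ± 2.59 RPKM. *Ccng1*, *Cdkn2c*, *Mdm2* and *Cdkn1a* came next, between 11.7 and 7.39 RPKM on average, each overlapping its neighbour. *Cdkn1b* at 4.80 ± 0.607 RPKM and *Gdf15* at 1.89 ± 1.01 RPKM were lowest and did not overlap. Under LPS, *Cdkn1a* was the third highest of the 10 genes in young cells, at 46.7 ± 12.8 RPKM, but the seventh in aged cells, at 19.6 ± 3.45 RPKM. In young LPS-treated cells the ranges of neighbouring genes overlapped from *Cdkn1a* through *Mdm2*, *Cdkn2a* and *Gdf15* to *Lmnb1*. In aged LPS-treated cells they overlapped from *Cdkn2a* through *Mdm2* and *Gdf15* to *Cdkn1a*.

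**Figure D1:**
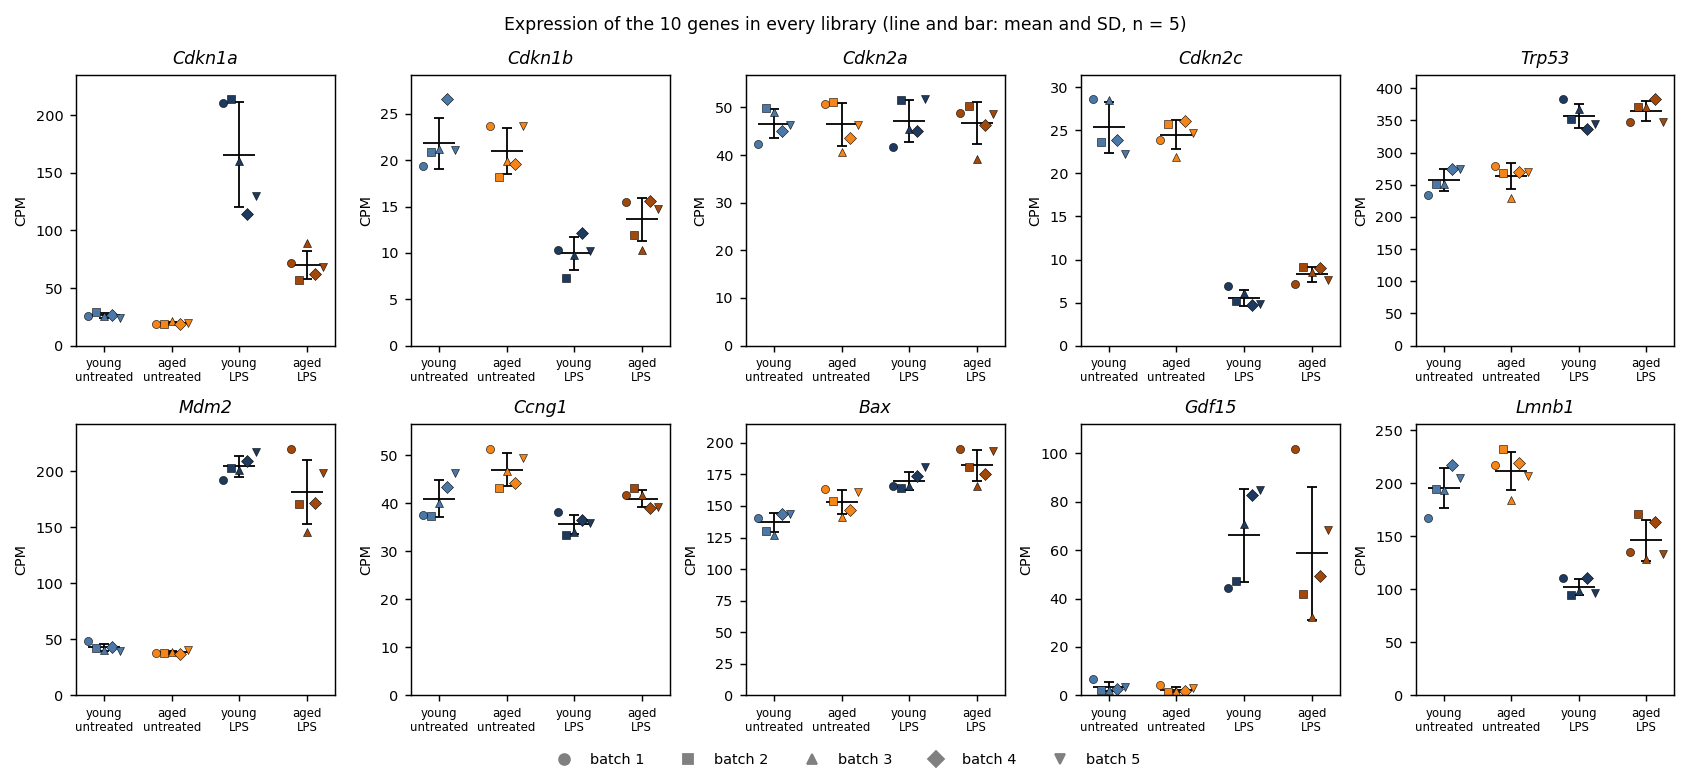
Levels of the 10 genes in CPM (vertical axis, from 0, with a separate scale per gene) in every library of the 4 groups, with the symbol giving the batch and the line and bar the mean and SD of 5 libraries. *Cdkn1a* under LPS reached 115 to 214 CPM in young and 57.2 to 89.1 CPM in aged cells, while *Cdkn2a* stayed between 39.2 and 51.7 CPM in all 20 libraries.

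The first comparison asked whether aged BV-2 microglia differed from young ones without LPS. Of the 10 genes only *Ccng1*, the gene for cyclin G1, passed the test, being slightly higher in aged cells. Of all tested genes, 11.5% were DEGs, 3.71% higher and 7.81% lower in aged cells. Among the 10, groups that did not overlap were seen for *Cdkn1a* alone, which was lower in aged cells in all 5 batches but did not pass. *Cdkn2a* and *Trp53* had nearly equal means in both groups. The median log2 fold change of the 10 genes was -0.03, against -0.01 over all tested genes.

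*Cdkn1a* encodes p21, which inhibits CDK2 complexes and is the best-known p53 target in cell cycle arrest. In young untreated cultures its level was 25.7, 29.4, 25.6, 26.2 and 24.2 CPM in batches 1 to 5, and aged ones had 19.2, 19.0, 21.4, 18.8 and 19.8 CPM. Every aged culture was below every young one, and the groups did not overlap, in either direction, for 10.4% of all tested genes. The log2 fold change was -0.42 (SE 0.153, edgeR adjusted p = 0.0812). The adjusted p was 0.0473 in DESeq2, 0.0442 with no filter on low counts and 0.00154 in edgeR on the untreated libraries alone, so the call depended on the processing.

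*Ccng1* was measured at 37.5, 37.4, 40.1, 43.5 and 46.2 CPM in young and 51.3, 43.1, 46.8, 44.2 and 49.4 CPM in aged untreated cultures. It was higher in the aged culture of all 5 batches, although the groups overlapped. Its log2 fold change was 0.20 (SE 0.0642, edgeR adjusted p = 0.0484), and it lost the call when any 1 batch was left out (adjusted p = 0.0557 to 0.25), with no filter on low counts (adjusted p = 0.104) and when only the untreated libraries were fitted (adjusted p = 0.0617).

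*Bax*, whose product permeabilises the outer mitochondrial membrane in apoptosis, was at 140, 130, 127, 143 and 144 CPM in young and 163, 154, 141, 146 and 161 CPM in aged untreated cultures. The aged culture had the higher level in all 5 batches, again with overlapping groups. The log2 fold change was 0.16 (SE 0.0541, edgeR adjusted p = 0.0559), just outside the threshold. With the batch as a block it passed (adjusted p = 0.00857), as it did in DESeq2 (adjusted p = 0.0319).

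*Cdkn2a* had 42.4, 49.9, 49.1, 45.0 and 46.4 CPM in young and 50.8, 51.1, 40.6, 43.6 and 46.3 CPM in aged untreated cultures. The groups overlapped almost completely, and the difference of -0.0043 on the log2 scale had a 95% confidence interval of -0.17 to 0.16 (edgeR adjusted p = 0.983). For *Trp53*, levels of 234, 251, 252, 274 and 274 CPM in young and 279, 268, 229, 270 and 270 CPM in aged cultures gave a log2 fold change of 0.04 (95% confidence interval -0.08 to 0.15, edgeR adjusted p = 0.76). Neither gene showed a difference beyond the spread of its cultures.

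The other 5 genes did not pass either. *Mdm2* was lower in aged cells in 4 of 5 batches (log2 fold change -0.15, edgeR adjusted p = 0.262), and *Lmnb1* was higher in 4 of 5 (0.12, edgeR adjusted p = 0.402). *Gdf15*, a secreted stress cytokine of the TGF-beta superfamily, was lower in the aged culture of all 5 batches, by 0.26 to 0.70 on the log2 scale, but the level of 2.17 to 6.69 CPM in young and 1.41 to 4.07 CPM in aged cells varied from batch to batch (log2 fold change -0.53, SE 0.460, edgeR adjusted p = 0.519). *Cdkn1b*, the gene for the CDK inhibitor p27, and *Cdkn2c*, the gene for the CDK4 and CDK6 inhibitor p18, had log2 fold changes of -0.06 and -0.05 (edgeR adjusted p = 0.828 and 0.787).

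The second comparison asked how the genes respond to 6 hours of LPS, separately in young and in aged cells. In both, 9 of the 10 genes changed: *Cdkn1a*, *Mdm2*, *Gdf15*, *Trp53* and *Bax* rose, while *Cdkn1b*, *Cdkn2c*, *Lmnb1* and *Ccng1* fell. Only *Cdkn2a* did not pass the test. DEGs made up 64.6% of all tested genes in young cells, 31.2% higher and 33.5% lower with LPS, and 54.4% in aged cells, 27.5% higher and 26.9% lower, so most tested genes responded as well. The share of DEGs that were higher, 48.2% in young and 50.6% in aged cells, was 27.3% and 28.4% with scaling by library size alone. In each age, 8 of the 10 genes had no overlap between untreated and LPS-treated cultures, against 49.1% of tested genes in young and 40.1% in aged cells. The LPS comparisons and the age comparisons share their untreated and LPS-treated cultures, so their values are not independent.

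*Gdf15* had the largest increase. In young LPS-treated cultures it reached 44.5, 47.4, 70.8, 82.9 and 84.7 CPM in batches 1 to 5, and in aged ones 102, 41.9, 32.4, 49.5 and 68.4 CPM. All of these were well above the untreated level, and batch 1 gave the lowest young and the highest aged value. The log2 fold change was 4.26 (SE 0.339, edgeR adjusted p = 1.95e-10) in young and 4.62 (SE 0.356, edgeR adjusted p = 2.04e-10) in aged cells, a 19.2-fold and a 24.6-fold increase.

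*Cdkn1a* rose in young cells to 211, 214, 160, 115 and 130 CPM, and in aged cells to 72.2, 57.2, 89.1, 62.1 and 68.2 CPM. Batches 1 and 2 were the highest of the young group, whereas the aged cultures lay close together. The increase was 6.31-fold in young cells (log2 fold change 2.66, SE 0.147, edgeR adjusted p = 3.65e-13) and 3.55-fold in aged cells (1.83, SE 0.149, edgeR adjusted p = 5.44e-10).

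*Mdm2* was at 48.3, 42.6, 40.3, 43.4 and 39.3 CPM in young and 38.2, 37.8, 38.7, 37.4 and 40.5 CPM in aged untreated cultures. LPS brought it to 192, 203, 202, 209 and 217 CPM in young cells and to 220, 171, 146, 172 and 199 CPM in aged cells. The LPS-treated cultures of both ages stood far above all untreated ones, with the wider spread in the aged group. Young cells showed a 4.79-fold increase (log2 fold change 2.26, SE 0.0826, edgeR adjusted p = 3.3e-16) and aged cells a 4.72-fold increase (2.24, SE 0.0828, edgeR adjusted p = 6.72e-16).

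*Trp53* itself rose less, to 383, 353, 368, 336 and 345 CPM in young and 348, 372, 371, 383 and 348 CPM in aged cells. Every LPS-treated culture exceeded every untreated one of its age, with log2 fold changes of 0.47 in both (SE 0.0563 in each, edgeR adjusted p = 1.38e-07 in young and 2.8e-07 in aged cells). *Bax* reached 165, 164, 166, 173 and 181 CPM in young and 195, 181, 166, 175 and 194 CPM in aged cells, with log2 fold changes of 0.31 (edgeR adjusted p = 2.88e-05) and 0.25 (edgeR adjusted p = 0.000444). Scaling by library size alone took *Bax* below the threshold in both ages (log2 fold changes 0.09 and 0.09, adjusted p = 0.159 and 0.176).

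Among the genes that fell, *Cdkn2c* changed most. It went from 28.6, 23.7, 28.5, 23.9 and 22.2 CPM to 6.92, 5.14, 6.14, 4.77 and 4.79 CPM in young cells, and from 23.9, 25.8, 21.9, 26.1 and 24.7 CPM to 7.16, 9.15, 8.55, 8.98 and 7.60 CPM in aged cells. The groups were far apart in both ages. The fall was 4.59-fold in young (log2 fold change -2.20, SE 0.107, edgeR adjusted p = 4.06e-14) and 2.96-fold in aged cells (-1.56, SE 0.101, edgeR adjusted p = 9.83e-12).

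*Cdkn1b* had 19.3, 20.9, 21.3, 26.6 and 21.1 CPM in young untreated cultures and 23.7, 18.2, 19.9, 19.6 and 23.6 CPM in aged ones. With LPS it was at 10.3, 7.30, 9.79, 12.2 and 10.2 CPM in young and 15.5, 12.0, 10.3, 15.6 and 14.7 CPM in aged cultures. The drop separated all cultures in both ages, with log2 fold changes of -1.13 (edgeR adjusted p = 7.81e-08) in young and -0.63 (edgeR adjusted p = 0.000195) in aged cells.

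*Lmnb1* was at 167, 195, 193, 217 and 205 CPM in young and 218, 233, 185, 219 and 207 CPM in aged untreated cultures. Under LPS it fell to 111, 94.7, 98.2, 110 and 96.8 CPM in young and 135, 171, 129, 164 and 133 CPM in aged cells. Treated and untreated cultures did not overlap. Its log2 fold changes were -0.94 (SE 0.0841, edgeR adjusted p = 1.51e-09) in young and -0.54 (SE 0.0829, edgeR adjusted p = 9.46e-06) in aged cells.

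*Ccng1*, although a p53 target, was lower with LPS: 38.1, 33.3, 34.0, 36.6 and 35.8 CPM in young and 41.6, 43.2, 41.7, 38.9 and 39.1 CPM in aged cells. Treated and untreated cultures overlapped, and 4 of 5 batches fell in each age. The log2 fold changes of -0.20 in young (edgeR adjusted p = 0.00942) and -0.20 in aged cells (edgeR adjusted p = 0.0126) were both lost without batch 5 (adjusted p = 0.0629 and 0.0642).

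*Cdkn2a* was measured at 41.6, 51.6, 45.4, 45.1 and 51.7 CPM in young and 48.7, 50.4, 39.2, 46.3 and 48.6 CPM in aged LPS-treated cultures, much as without LPS. The log2 fold change was 0.02 in young (95% confidence interval -0.15 to 0.18, edgeR adjusted p = 0.865) and 0.01 in aged cells (-0.16 to 0.17, edgeR adjusted p = 0.962). Scaling by library size alone, which lowered the median of all tested genes in young cells to -0.23, gave -0.20 (adjusted p = 0.0315) for *Cdkn2a* there, close to that median.

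**Figure D2:**
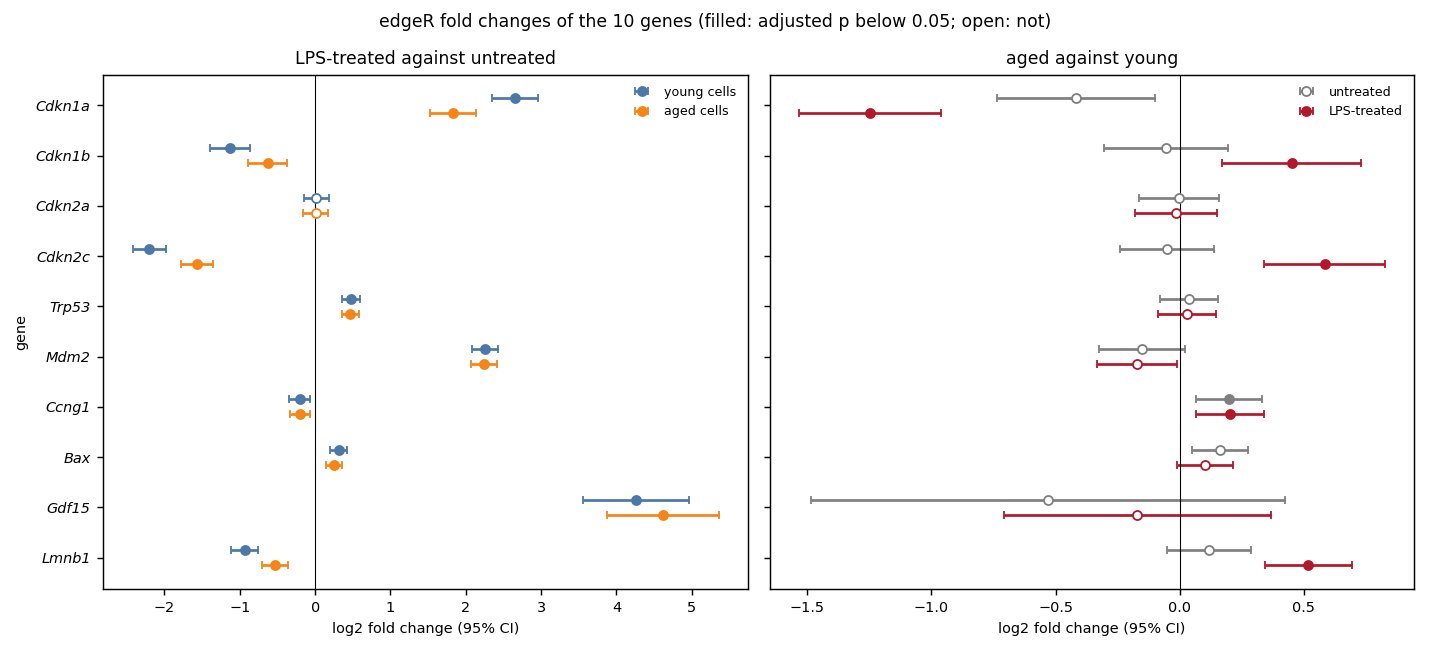
Log2 fold changes of the 10 genes (horizontal axis, with 95% confidence intervals) for LPS against untreated in young and aged cells (left) and for aged against young in untreated and LPS-treated cells (right), filled where the edgeR adjusted p was below 0.05. The *Cdkn1a* increase was 2.66 in young and 1.83 in aged cells, whereas the *Mdm2* points, 2.26 and 2.24, lay on top of each other.

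The third comparison set aged against young cells under LPS. *Cdkn1a* was lower and *Lmnb1*, *Cdkn2c*, *Cdkn1b* and *Ccng1* were higher in aged cells, so 5 of the 10 genes were DEGs, against 29.0% of all tested genes, 14.0% higher and 15.0% lower. Scaling by library size alone moved the share of DEGs that were higher from 48.3% to 70.1%. *Mdm2*, *Gdf15*, *Bax*, *Trp53* and *Cdkn2a* did not pass. Groups were fully apart in 4 of the 10 genes, *Cdkn1a*, *Cdkn2c*, *Ccng1* and *Lmnb1*, and in 14.8% of all tested genes.

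*Cdkn1a* was 2.37-fold lower in aged LPS-treated cells, at 69.8 ± 12.3 CPM against 166 ± 45.5 CPM (SD, n = 5 each, log2 fold change -1.25, SE 0.138, edgeR adjusted p = 9.86e-07). The aged culture had the lower level in all 5 batches, by 0.85 to 1.90 on the log2 scale. *Lmnb1* was 1.43-fold higher, at 146 ± 19.3 against 102 ± 7.82 CPM (log2 fold change 0.52, SE 0.0842, edgeR adjusted p = 7.03e-05). *Cdkn2c* was higher as well, at 8.29 ± 0.873 against 5.55 ± 0.943 CPM (0.58, SE 0.117, edgeR adjusted p = 0.000619).

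*Cdkn1b*, at 13.6 ± 2.37 CPM in aged and 9.94 ± 1.74 CPM in young LPS-treated cells, was higher in the aged culture of all 5 batches (log2 fold change 0.45, SE 0.135, edgeR adjusted p = 0.0147), a call lost without batch 1, 2 or 5 (adjusted p = 0.0505, 0.0563 and 0.0625). *Ccng1* had a log2 fold change of 0.20 (SE 0.0661, edgeR adjusted p = 0.0233), close to that in untreated cells, and lost the call without batch 2 or 3 (adjusted p = 0.138 and 0.118).

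For *Mdm2* and *Gdf15* the result rested on batch 1, in which the aged LPS-treated culture was the higher one while it was the lower one in the other 4 batches. Over all batches the log2 fold changes were -0.17 for *Mdm2* (edgeR adjusted p = 0.0999) and -0.17 for *Gdf15* (edgeR adjusted p = 0.676). Without batch 1 they were -0.27 (adjusted p = 0.00528) and -0.57 (adjusted p = 0.0302), and both genes passed. *Bax* (0.10, edgeR adjusted p = 0.176), *Trp53* (0.03, edgeR adjusted p = 0.748) and *Cdkn2a* (-0.02, edgeR adjusted p = 0.908) had small differences that did not pass.

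Whether the LPS response itself differed with age was tested as an interaction, the response of aged minus that of young cells. It passed for 3 of the 10 genes, against 6.39% of all tested genes, 4.12% with a higher and 2.27% with a lower response in aged cells (the higher ones making up 64.4% of the DEGs, or 81.3% with scaling by library size alone). The *Cdkn1a* increase was 3.03, 2.86, 2.64, 2.12 and 2.42 on the log2 scale in the young cultures of batches 1 to 5, and 1.90, 1.58, 2.05, 1.71 and 1.78 in the aged ones. Every aged response was below every young one. *Cdkn1a* rose less in aged cells, by -0.83 on the log2 scale (SE 0.205, edgeR adjusted p = 0.0161) and in the same direction in all 5 batches. *Cdkn2c* fell less (0.63, SE 0.149, edgeR adjusted p = 0.0111, all 5 batches), as did *Lmnb1* (0.40, SE 0.118, edgeR adjusted p = 0.0431, 4 of 5 batches). The call was lost for *Cdkn1a* without batch 1, 2 or 5 (adjusted p = 0.0709, 0.112 and 0.0515), for *Cdkn2c* without batch 2 or 4 (adjusted p = 0.098 and 0.0555), and for *Lmnb1* without batch 2, 3, 4 or 5 (adjusted p = 0.094 to 0.209) or with DESeq2's size factors (adjusted p = 0.0577).

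*Cdkn1b* fell less in the aged cells of all 5 batches (0.51, SE 0.180) but did not pass (edgeR adjusted p = 0.105), whereas with the batch as a block it did (adjusted p = 0.041). The response of *Mdm2* differed by -0.02 between the ages (edgeR adjusted p = 0.96). Its 95% confidence interval of -0.26 to 0.21 does not hold a difference of the size measured for *Cdkn1a*. The batches were opposed, however, with a difference of 0.53 in batch 1 and of -0.41 to -0.07 in the others. For *Gdf15* the interval of -0.74 to 1.45 was wide (edgeR adjusted p = 0.796), and the young culture of batch 1 responded least, by 2.71 against 4.36 to 4.87 in the other 4. *Trp53* (-0.01), *Ccng1* (0.01), *Bax* (-0.06) and *Cdkn2a* (-0.01) had interactions near 0, and the 95% confidence intervals of these genes ran at most from -0.24 to 0.22.

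**Figure D3:**
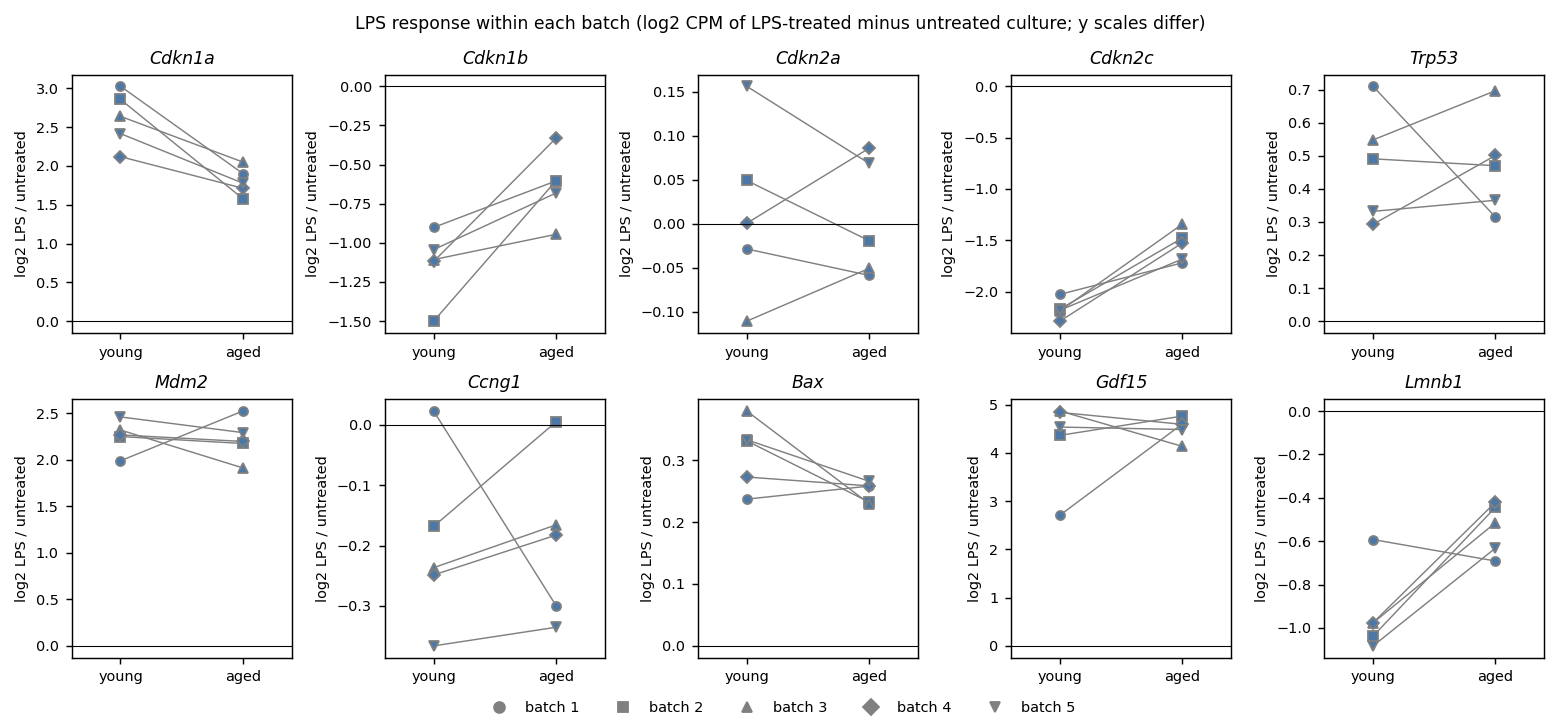
LPS response within each batch (vertical axis, log2 CPM of the LPS-treated minus the untreated culture, with a separate scale per gene) in young and in aged cells, with a line joining the cultures of a batch. For *Cdkn1a* all 5 lines fall and for *Cdkn2c* all 5 rise, whereas for *Lmnb1* the line of batch 1 runs against the other 4.

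The genes around these 10 were examined as lists. Of 32 other p53 targets, 27 were tested. Between aged and young untreated cells 3 of the 27 were higher and 1 lower in the aged group, where 3.71% and 7.81% of all tested genes were. The number that passed was 0 without batch 2 and 3 to 5 without any other batch. The lower one was *Sesn1* (52.6 ± 6.55 against 68.8 ± 4.46 CPM, log2 fold change -0.39, edgeR adjusted p = 0.00625), which encodes a stress-inducible regulator of mTORC1, and among the higher ones were *Aen*, an apoptosis-enhancing nuclease (0.27, edgeR adjusted p = 0.01), and *Zmat3*, an RNA-binding protein (0.27, edgeR adjusted p = 0.0385). Under LPS the p53 targets moved both ways, with 11 higher and 11 lower in young and 11 higher and 10 lower in aged cells, and a median log2 fold change of 0.01 and 0.06 that turned to -0.21 and -0.10 with scaling by library size alone. LPS raised 31.2% and lowered 33.5% of all tested genes in young cells, and 27.5% and 26.9% in aged cells. *Plk2*, a polo-like kinase, rose from 39.0 ± 8.05 to 643 ± 78.9 CPM in young cells (log2 fold change 4.04, edgeR adjusted p = 4.28e-17) and from 41.5 ± 4.57 to 549 ± 78.6 CPM in aged cells (3.72, edgeR adjusted p = 2.14e-16).

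The death receptor gene *Fas* rose in both ages (edgeR adjusted p = 1.43e-12 and 2.54e-11), from 0.260 ± 0.0797 to 7.00 ± 1.35 CPM in young and from 0.0683 ± 0.119 to 3.64 ± 0.194 CPM in aged cells. *Fas* passed the filter on low counts only through the LPS-treated libraries, so its call as raised followed in part from the filter. *Sesn1* fell by 2.81 in young and by 2.37 in aged cells on the log2 scale (edgeR adjusted p = 3.9e-16 and 1e-14). *Psrc1*, which encodes a spindle protein, fell by 1.47 in young cells (edgeR adjusted p = 8.57e-07) and *Ddb2*, a DNA damage sensor, by 1.42 in aged cells (edgeR adjusted p = 5.91e-07). Under LPS, 5 of the 27 were higher and 3 lower in aged than in young cells (5 in all without batch 3), *Zmat3* (0.53, edgeR adjusted p = 7.6e-05) and the caspase-2 activator *Pidd1* (0.51, edgeR adjusted p = 0.00175) in the former and *Fas* (-0.93, edgeR adjusted p = 0.000736) and *Apaf1*, the apoptosome scaffold (-0.21, edgeR adjusted p = 0.04), in the latter direction. The interaction passed for 2 of the 27, *Pidd1* (0.72, edgeR adjusted p = 0.00567) and *Aen* (-0.46, edgeR adjusted p = 0.00369), and for 0 without batch 2. The 8 that passed between ages under LPS and the 2 for the interaction were close to the shares of all tested genes, 29.0% and 6.39%.

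All 24 regulators of p53 and damage kinases were tested. In untreated cells 2 were higher with age, *Npm1*, the nucleolar chaperone nucleophosmin (0.22, edgeR adjusted p = 0.0132), and *Bmi1*, a Polycomb repressor of the *Cdkn2a* locus (0.22, edgeR adjusted p = 0.0338), and 2 were lower, the acetyltransferase gene *Ep300* (-0.24, edgeR adjusted p = 0.00544) and the SUMO ligase gene *Pias1* (-0.23, edgeR adjusted p = 0.00465). The shares of all tested genes were 3.71% higher and 7.81% lower. Without batch 1 or batch 2, 2 of the 24 passed. LPS lowered 9 and raised 7 of the 24 in young cells and lowered 8 and raised 5 in aged cells, while scaling by library size alone gave 15 lower and 3 higher in young and 12 lower and 3 higher in aged cells. The 16 and 13 that passed were close to the shares of all tested genes, 64.6% in young and 54.4% in aged cells. The checkpoint kinase gene *Chek2* fell from 32.1 ± 2.21 to 14.5 ± 1.41 CPM in young (-1.14, edgeR adjusted p = 5.35e-12) and from 28.8 ± 0.550 to 15.1 ± 1.52 CPM in aged cells (-0.93, edgeR adjusted p = 3.21e-10). *Chek1* was at 24.1 ± 2.05 CPM in aged and averaged 15.4 CPM in young LPS-treated cells (0.65, edgeR adjusted p = 3.49e-06). Its fall was smaller in aged cells by 0.52 (edgeR adjusted p = 0.0051), and 7 of the 24 were higher and 4 lower in aged than in young cells under LPS (6 in all without batch 2). Among all tested genes 14.0% were higher and 15.0% lower there.

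The remaining CDK inhibitors were *Cdkn2b*, *Cdkn2d* and *Cdkn1c*, of which *Cdkn1c* was too low to test. *Cdkn2b*, the neighbour of *Cdkn2a* and the gene for p15, rose from 0.813 ± 0.278 to 7.51 ± 2.55 CPM in young cells (log2 fold change 3.19, edgeR adjusted p = 1.84e-09) and from 0.827 ± 0.187 to 3.10 ± 1.21 CPM in aged cells (1.90, edgeR adjusted p = 1.97e-05), and was lower in aged than in young cells under LPS (-1.27, edgeR adjusted p = 0.000376). *Cdkn2d*, the gene for p19Ink4d, had log2 fold changes of 0.24 in young (edgeR adjusted p = 0.0613) and 0.61 in aged cells (edgeR adjusted p = 5.61e-05). It was higher in aged than in young cells under LPS (0.37, edgeR adjusted p = 0.0133). The age differences of *Cdkn2b* and *Cdkn2d* without LPS were 0.02 and 0.01 (edgeR adjusted p = 0.987 and 0.975), and their interactions of -1.29 and 0.36 did not pass (edgeR adjusted p = 0.0988 and 0.193).

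*Bax* belongs to the BCL2 family of apoptosis regulators, of whose other 17 listed members 14 were tested, the p53 targets *Bbc3* and *Pmaip1* among them. LPS raised 10 and lowered 2 of the 14 in young cells and raised 9 and lowered 2 in aged cells. It raised 31.2% and lowered 33.5% of all tested genes in young cells, and 27.5% and 26.9% in aged cells. *Bik*, 1 of those raised, averaged 0.133 CPM in young and 0.0511 CPM in aged untreated cells. It passed the filter on low counts only through the LPS-treated libraries. *Bmf*, a pro-apoptotic BH3-only gene, fell from 19.1 ± 3.17 to 2.12 ± 0.735 CPM in young (-3.18, edgeR adjusted p = 1.13e-13) and from 11.8 ± 1.72 to 3.45 ± 0.286 CPM in aged cells (-1.77, edgeR adjusted p = 1.73e-09). The anti-apoptotic genes *Bcl2a1b* and *Bcl2a1d* rose in young cells to 39.7 ± 12.2 and 16.0 ± 4.92 CPM and in aged cells to 11.4 ± 2.40 and 4.65 ± 0.768 CPM, but they are near-identical copies, so how reads were split between them is uncertain. Under LPS 7 of the 14 were lower and 1, *Bmf*, was higher in aged than in young cells (0.72, edgeR adjusted p = 0.00785). The shares of all tested genes were 15.0% lower and 14.0% higher. Without LPS 3 were lower in aged cells, and with the batch as a block 4 were lower and 1 higher. Without the block, 7.81% of all tested genes were lower there.

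Of 14 genes for proteins of the nuclear lamina and chromatin, LPS lowered 8 and raised 1 in young cells. In aged cells it lowered 3 and raised 4, or lowered 7 and raised 1 when libraries were scaled by size alone. The 9 and 7 that passed were close to the shares of all tested genes, 64.6% in young and 54.4% in aged cells. *Lmnb2*, which encodes the second B-type lamin, fell from 102 ± 1.78 to 57.6 ± 8.00 CPM in young (-0.82, edgeR adjusted p = 5.42e-09) and from 95.6 ± 6.35 to 63.6 ± 7.28 CPM in aged cells (-0.59, edgeR adjusted p = 1.37e-06). *Tmpo*, the gene for the lamina-associated polypeptide 2, fell by 0.70 and 0.40 on the log2 scale (edgeR adjusted p = 7.04e-10 and 5.92e-06), less so in aged cells (0.30, edgeR adjusted p = 0.034), though 0 of the 14 passed for this difference without batch 2, 3, 4 or 5. The architectural chromatin gene *Hmga2* rose by 0.65 in young (edgeR adjusted p = 6.07e-09) and by 0.75 in aged cells (edgeR adjusted p = 8.57e-10). Under LPS 4 of the 14 were higher in aged cells, among them the lamin B receptor gene *Lbr* (0.56, edgeR adjusted p = 0.000712) and *H2afx* (0.42, edgeR adjusted p = 0.000343). The share of all tested genes that were higher was 14.0%. In untreated cells 1 of the 14, *Sun2*, a nuclear envelope gene, was lower with age (-0.36, edgeR adjusted p = 0.0448), a call lost without batch 1, 2 or 3. That was close to the share of all tested genes that were lower, 7.81%.

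Proliferation genes, which p21 represses through the DREAM complex and Rb, were all tested (34 genes). In untreated cells no gene of this list passed between the ages in edgeR, 6 had an unadjusted p below 0.05, and 3 passed in DESeq2 and 4 in edgeR with the batch as a block, all higher in aged cells. LPS lowered 26 of the 34 in young and 22 in aged cells, with median log2 fold changes of -0.71 and -0.34. It lowered 33.5% of all tested genes in young and 26.9% in aged cells. Under LPS 24 of the 34 were higher in aged than in young cells and 13 had a positive interaction, while the sign was positive for all 34 in both. Of all tested genes, 14.0% and 4.12% were called in these directions. With 1 batch left out, the numbers of the 34 that passed ran from 16 to 32 under LPS and from 9 to 18 for the interaction. *E2f2*, a transcription factor of S phase, fell from 64.6 ± 4.17 to 17.2 ± 2.98 CPM in young (-1.91, edgeR adjusted p = 5.34e-13) and from 54.8 ± 6.38 to 32.2 ± 4.49 CPM in aged cells (-0.77, edgeR adjusted p = 1.15e-06), with an interaction of 1.14 (edgeR adjusted p = 0.000135). *Rrm2*, a subunit of ribonucleotide reductase, was at 108 ± 13.3 CPM in aged and 53.5 ± 6.43 CPM in young LPS-treated cells (1.01, edgeR adjusted p = 6.09e-07), and *Ccne2*, a G1/S cyclin, at 21.6 ± 4.44 and 11.2 ± 2.57 CPM (0.93, edgeR adjusted p = 0.00014).

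Summed over these 34 genes, untreated cells had 6695 ± 160 CPM when young and 6737 ± 222 CPM when aged, and LPS-treated cells had 4285 ± 503 and 5443 ± 601 CPM. The LPS-treated groups overlapped. In batch 1 the aged LPS-treated culture had the lower sum, 4787.9 against 5156.5 CPM, and in every other batch the higher one. On average the sum thus moved with *Cdkn2c*, *Lmnb1*, *Cdkn1b* and *Ccng1*. These members were also lowered by LPS and higher in aged than in young LPS-treated cells. The part of the proliferation genes in the results of these members was not tested. In bulk RNA, fewer dividing cells and less RNA of the proliferation genes per cell cannot be told apart.

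Secreted factors of the senescence-associated secretory phenotype were mostly inflammatory genes in this list, and 22 of 29 were tested. Without LPS 5 of the 22 were lower in aged cells, where 7.81% of all tested genes were. The number that passed was 10 with the batch as a block, 9 in DESeq2 and 3 with at least 10 counts in every sample, and it was 2 without batch 1, 1 without batch 2 and 3 without batch 5. Among the 5 were the chemokine genes *Cxcl10* (0.627 ± 0.327 against 4.43 ± 2.91 CPM, edgeR adjusted p = 0.0343) and *Ccl4* (4.92 ± 0.528 against 9.30 ± 4.14 CPM, edgeR adjusted p = 0.0191). LPS raised 18 and lowered 3 in young cells and raised 19 and lowered 2 in aged cells. It raised 31.2% and lowered 33.5% of all tested genes in young cells, and 27.5% and 26.9% in aged cells. Some of the 22, *Il6* and *Mmp13* among them, passed the filter on low counts only through the LPS-treated libraries. Their counting as raised thus followed in part from the filter. *Mmp13* had at most 2 counts in young and 1 in aged untreated libraries. *Il6* reached 33.0 ± 16.6 CPM in young and 5.15 ± 3.70 CPM in aged LPS-treated cells (-2.66, edgeR adjusted p = 4.43e-05) and had no counts in any aged untreated library, so its increase in aged cells was at least 27.6-fold against a floor of 3 counts per library. *Cxcl2*, also without counts there, rose at least 288.5-fold. Under LPS 16 of the 22 were lower in aged cells, including the chemokine gene *Ccl5* at 67.2 ± 36.0 against 345 ± 108 CPM (-2.36, edgeR adjusted p = 3.84e-07). The share of all tested genes that were lower was 15.0%. The LPS response itself differed with age for 1 of the 22, *Hgf* (1.89, SE 0.501, edgeR adjusted p = 0.0254), named after its value was seen. That was close to the share of all tested genes, 6.39%. The *Hgf* call was lost without batch 1, 2, 4 or 5, and its level was near the floor, at 0.317 CPM in aged untreated and 0.534 CPM in aged LPS-treated cells. The median interaction was 0.01, with some genes at the floor without LPS. The interaction did not pass for *Il6* (0.87, SE 1.64, edgeR adjusted p = 0.85) or *Ccl5* (0.20, SE 0.877, edgeR adjusted p = 0.95). In aged untreated cells *Il6* had no counts and *Ccl5* averaged 0.241 CPM, so these values cannot show whether either response differed with age.

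Of 5 lysosomal genes read as senescence markers, among them *Glb1*, the source of senescence-associated beta-galactosidase activity, 1 was lower in aged untreated cells and 2 with the batch as a block. It was *Lamp2*, a lysosomal membrane gene, at 492 ± 27.4 against 571 ± 48.4 CPM (-0.21, edgeR adjusted p = 0.0272), and 0 of the 5 passed without batch 1, 2, 3 or 5. The share of all tested genes that were lower was 7.81%. *Lamp2* was again lower in aged cells under LPS (-0.31, edgeR adjusted p = 0.000543) and rose with LPS in young cells (0.22, edgeR adjusted p = 0.00352), while *Fuca1*, the gene for the lysosomal fucosidase, fell there (-0.49, edgeR adjusted p = 0.00856). In aged cells no gene of the 5 passed for LPS in edgeR, 0 had an unadjusted p below 0.05, 0 passed in DESeq2, and 1 was higher and 1 lower with the batch as a block.

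**Figure D4:**
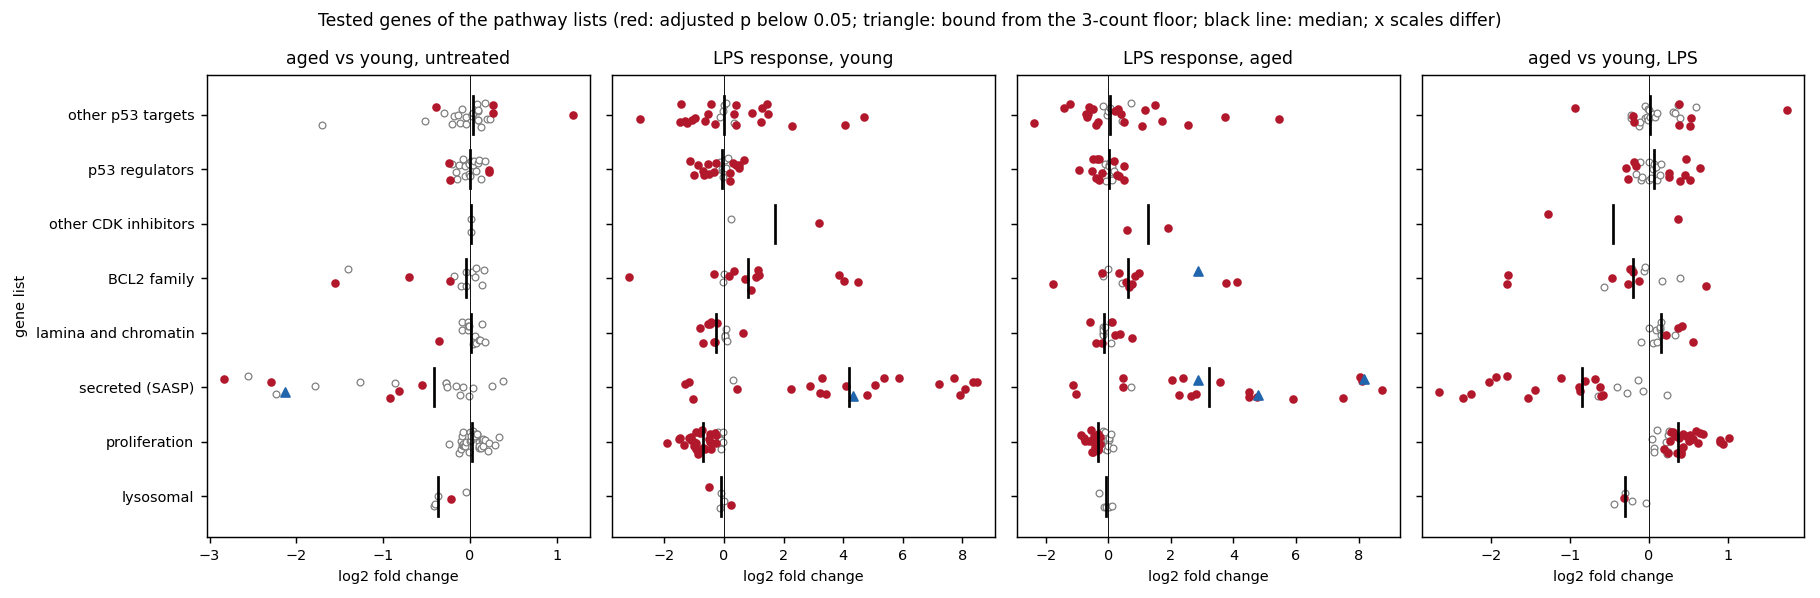
Log2 fold changes (horizontal axis, scales differ between panels) of the tested genes of each list in the 4 group comparisons, with 1 point per gene, red where the edgeR adjusted p was below 0.05, and a black line at the median. A triangle marks the bound where only 1 of the groups was at the floor of 3 counts. It is not drawn where the mean CPM of the other group was also below the floor. The proliferation genes lay below 0 with LPS, at a median of -0.71 in young and -0.34 in aged cells, and above 0 for aged against young under LPS.

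Genes whose pattern over the 20 libraries was most like that of 4 of these genes were found by the root mean square (RMS) difference of log2 CPM after centring each gene on the young untreated mean. Nearest to *Cdkn1a* were *Tap1* (RMS difference 0.17), *Znfx1* (0.20) and *Pdgfb* (0.22). *Tap1*, a peptide transporter of antigen presentation, averaged 33.1 and 23.7 CPM in young and aged untreated and 221 and 93.5 CPM in young and aged LPS-treated cells. Nearest to *Lmnb1* were *Cdan1* (0.09), *Mybl2* (0.10) and *Foxm1* (0.10), of which the last 2 are cell cycle transcription factors and are also in the proliferation list. Nearest to *Gdf15* were *Slc7a11*, the cystine transporter (0.53), *Slfn2* (0.54) and *Plk2* (0.54), at a much larger distance, and nearest to *Cdkn2a* were *Prps1l3* (0.07), *Atxn7l3* (0.08) and *Map3k7* (0.09), which like it varied little.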

How the data were processed

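RNA-seq of 20 BV-2 cultures gave 1 table of counts. The authors prepared stranded poly(A) libraries, aligned the reads to GRCm38 with STAR 2.6.1d, counted them per gene with featureCounts 1.5.1 and deposited whole-number counts without normalization. Strand, multi-mapping and overlap settings are not given in the sources used here, so near-identical or overlapping genes are uncertain. Columns were matched to samples by name, and 55141 of 55487 identifiers were found in GENCODE M21.

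Differences were tested with the quasi-likelihood F-test of edgeR 4.0.16 under R 4.3.3 (limma 3.58.1). A single model with a term for group and none for batch covered the 20 libraries, using TMM scaling, filterByExpr, Benjamini-Hochberg adjustment over 12799 genes and a threshold of 0.05. CPM use TMM-scaled library sizes. A floor of 3 counts per library (0.165 to 0.296 CPM) covers counting error only. For any 2 libraries of a group, chi-square over its degrees of freedom was 2.35 to 25.3, above the value near 1 that counting error alone gives.

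The members and lists were chosen with earlier results of these data known. From each list the genes named are the 2 largest called changes in each direction per comparison whose mean log2 CPM was 1 or more, all 3 CDK inhibitors, and for likeness the 3 nearest genes. Of those the rule gives, some are not described.

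Replicate numbers are batch numbers in the labels, so they pair the cultures. Checked in the data, same-numbered cultures of 1 age deviated from their groups together (mean r over genes 0.26 in aged and 0.28 in young cells), while across ages mean r was 0.0425 to 0.111 and all 4 such pairs of batch 1 were below 0 (-0.21 to -0.04). The fit with the batch as a block was an alternative. Others were DESeq2 1.42.0, its size factors, library sizes alone, a minimum of 10 counts in each sample, testing without a filter, fitting just the compared groups, and leaving out each batch. The edgeR fits with and without the block and the DESeq2 fit were tested on simulated data. Tables and figures used Python 3.11.15, pandas 2.3.3, numpy 2.4.6 and matplotlib 3.10.9. Start windows came from RefSeq (GRCm38.p6), and *Lmnb1* is not shown.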

Additional observations from a re-analysis of the deposited data

Results flagged for a closer look

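In 2 of 40 sets of 5 cultures (10 genes in 4 groups) 1 culture stood apart from the other 4 by Dixon's test, about what chance gives at 1 in 20. *Cdkn1b* in young untreated cells was highest in batch 4, at 26.6 CPM, and *Trp53* in aged untreated cells was lowest in batch 3, at 229 CPM.

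The LPS response differed between aged and young cells, by edgeR's interaction test, in *Cdkn1a* (-0.83 on the log2 scale), *Cdkn2c* (0.63) and *Lmnb1* (0.40).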

How the results depend on the processing

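No call of the 9 responding genes to LPS changed in either age with DESeq2, the block, DESeq2's size factors, no filter, at least 10 counts or only the groups compared. *Cdkn2a* never passed except for LPS in young cells with library sizes alone. Without LPS the number of the 10 genes that passed between the ages, 1, was 3 in DESeq2 and 2 with the replicate block, DESeq2's size factors, library sizes alone, at least 10 counts in every sample or only the groups compared, and 0 to 0 with 1 batch left out. That number ranged from 3 to 6 under LPS and from 0 to 2 for the interaction when 1 batch was left out. Over all genes the DEGs then ranged from 548 to 1193 between ages without LPS, from 2156 to 3563 under LPS and from 189 to 697 for the interaction. Pairing cultures by the block changed the call of *Bax* without LPS (log2 fold change 0.16) and of *Cdkn1b* in the interaction (0.51), and no other call of the 10 genes.

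Values near 0 changed sign. *Cdkn2a* without LPS was 0.0008 in DESeq2, 0.0012 with its size factors, 0.0157 with library sizes alone and 0.0084 with only the groups compared. Its LPS response in young cells was -0.2037 with library sizes alone and -0.0075 with no filter, and in aged cells -0.0008 in DESeq2, -0.1544 with library sizes alone and -0.0114 with no filter. Library sizes alone also gave *Cdkn2a* 0.0651 between ages under LPS and 0.0493 in the interaction, and interactions of 0.0551 for *Trp53* (0.001 with no filter) and 0.0383 for *Mdm2*. The *Ccng1* interaction was -0.0102 in DESeq2 and -0.0136 with its size factors.

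With 1 batch left out the age difference without LPS ran from -0.0707 to 0.0625 for *Cdkn2a*, -0.1429 to 0.049 for *Cdkn1b*, -0.0983 to 0.0343 for *Cdkn2c* and -0.0194 to 0.0762 for *Trp53*. For *Cdkn2a* the LPS response ran from -0.0206 to 0.0405 in young and -0.0144 to 0.0137 in aged cells, the age difference under LPS from -0.0693 to 0.0266 and the interaction from -0.0359 to 0.0102. Under LPS the age difference ran from -0.0104 to 0.0747 for *Trp53* and -0.5724 to 0.0081 for *Gdf15*. Interactions ran from -0.0606 to 0.0942 for *Trp53*, -0.1681 to 0.062 for *Mdm2*, -0.0342 to 0.0915 for *Ccng1* and -0.1395 to 0.5527 for *Gdf15*. The causes were not tested.

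Library sizes alone lowered the median of all genes for LPS to -0.23 in young and -0.16 in aged cells, and moved the share of higher DEGs from 48.2% to 27.3% and from 50.6% to 28.4%, between ages under LPS from 48.3% to 70.1%, and in the interaction from 64.4% to 81.3%. Among these 10 genes *Gdf15* had the lowest counts without LPS, 21 to 97 per library.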
